A study of Mus musculus with 32 samples.

Results

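Rearrangement of the Igκ light chain locus was read in a single pre-B-cell clone, clone 4, at 12 h and at 24 h after IL-7 was taken from the medium. The comparison was defined from the labels of the time course and used no measured value. It takes 2 of the 32 samples of the series, and 2 of its 10 rearrangement libraries, with 1 library at each time. The study asked how the V segments of the Igκ locus are selected on each allele in pre-B-cell clones, and for clone 4 it also collected RNA at 36 h and 48 h. Clone 4 came from bone marrow of adult female F1 B6/Cast mice, in which 1 copy of the locus is of C57BL/6 (B6) and the other of Castaneus (Cast) origin. It was selected with IL-7 on irradiated ST2 feeder cells and derived from a single cell by limiting dilution, so that both times describe the same clone and no other. The labels tell the 12 h and 24 h cells apart by the time spent without IL-7 alone, and they name no separate cultures, animals or days. The counts cover Vκ segments alone, so the cell type could not be checked against other marker genes.

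In pre-B cells, signalling through the IL-7 receptor keeps cells dividing and holds back light chain recombination, and its removal lets the RAG recombinase join a Vκ segment to a Jκ segment upstream of the constant exon Cκ. RAG recognises a signal sequence beside each segment, which for Vκ is a heptamer and a nonamer held apart by a spacer. A Vκ segment in the same orientation as Jκ joins by deletion of the DNA between them, and one in the opposite orientation joins by inversion. A V segment far from J can later replace a nearer one on the same allele, because V segments upstream and J segments downstream of the first joint can remain. The number after the dash in the name of a V segment gives its place in the locus, and the larger this position number, the farther the segment lies from J, except that Igkv4-60 lies nearer to J than Igkv4-59.

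Of the 112 V segments counted, 111 were matched by name to the GRCm38 annotation, where they lie on chromosome 6 between 67555497 and 70704177. The first J segment, Igkj1, lies at chr6:70722562-70722599 and the constant exon, Igkc, at chr6:70726435-70726966, both on the plus strand. A signal sequence was found at the 3′ end of the V exon, on the strand of the segment, for 108 of them, with at least 12 of 16 bases shared with the consensus, which is the heptamer CACAGTG, a spacer of 12 bases and the nonamer ACAAAAACC. Both elements equalled the consensus in 36 segments (33.3%), the heptamer alone in 58 (53.7%), the nonamer alone in 2 (1.85%) and neither in 12 (11.1%). The genome is of B6 origin, so these are signal sequences of the B6 allele. Those shown here belong to the segment with most reads at both times, to the segment with most Cast reads at 12 h, and to the B6 segments that were almost unread at 12 h and reached 1% of the library at 24 h. They are given 5′ to 3′ on the strand of the segment, with heptamer and nonamer in capitals.
Igkv19-93: CACAGTGatacaaatcataACAAAAACC
Igkv10-96: CACAATGatataagtcataACATAAACC
Igkv8-30: CACAGTGcttcagcctcctACACAAACC
Igkv6-32: CACAGTGcttcagcctcctACACAAACC
Igkv9-129: CACAGTGatacaaatcacaACATAAACC
The signal sequence of Igkv19-93 lies at chr6:68736269-68736296 and that of Igkv10-96 at chr6:68631935-68631962, both beside segments on the minus strand, which join by inversion. The signal sequences of Igkv8-30 (chr6:70117033-70117060) and Igkv6-32 (chr6:70073996-70074023), also on the minus strand, are identical. That of Igkv9-129 lies at chr6:67840267-67840294 beside a plus-strand segment, which joins by deletion.

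The 12 h library held 1737 allele-assigned reads, of which 1463 were on B6 and 274 on Cast, and the 24 h library held 1174, of which 933 were on B6 and 241 on Cast. These are low depths, and 3 reads, taken here as the smallest number told from 0, are 0.173% of the 12 h library and 0.256% of the 24 h library. The later libraries were deeper, with 7092 reads at 36 h and 10958 at 48 h, and clone 4 was sequenced again at 48 h in another table with 64672 reads. Reads carried no molecular identifiers, so that every interval and limit given here covers counting error only, and each test between the libraries compares these libraries and not the times, since time and library cannot be told apart. The reads count RNA, so that more cells with a rearrangement and more RNA from each such cell cannot be told apart either. The dissimilarity to the 48 h library of the course (Bray-Curtis, which is 0 for identical repertoires and 1 for repertoires with nothing in common) fell in the order of the time labels, from 0.694 for the 12 h library to 0.409 for the 24 h library and 0.140 for the 36 h library. Depth differs between these libraries, and no dissimilarity was computed at equal depth.

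The 12 h repertoire was held by very few segments, and by 24 h it was spread over many more. With each segment and allele counted separately, the 5 most abundant took 79.6% of the reads at 12 h and 44.1% at 24 h. On B6, 28 V segments had 3 or more reads at 12 h and 46 at 24 h, although the 24 h library was the shallower. On Cast the numbers were 15 at 12 h and 25 at 24 h. The effective number of segments and alleles (the inverse Simpson index, which counts abundant segments more) was 2.79 at 12 h and 9.46 at 24 h. Within B6 it went from 2.03 to 6.11, and within Cast from 3.09 to 18.3, so that by this measure Cast was spread over more segments than B6 in either library. The dissimilarity between the 12 h and 24 h libraries was 0.402, which lay above that between 24 h and 36 h (0.344) and between 36 h and 48 h (0.140), while the pair of clone 4 libraries at 48 h differed by 0.266. On Cast alone it was 0.568 between 12 h and 24 h and 0.355 between 24 h and 36 h. On B6 alone these values were close, at 0.350 and 0.342. Depth differed between the pairs of libraries, and no value was computed at equal depth, so their order was not separated from depth.

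**Figure D1:**
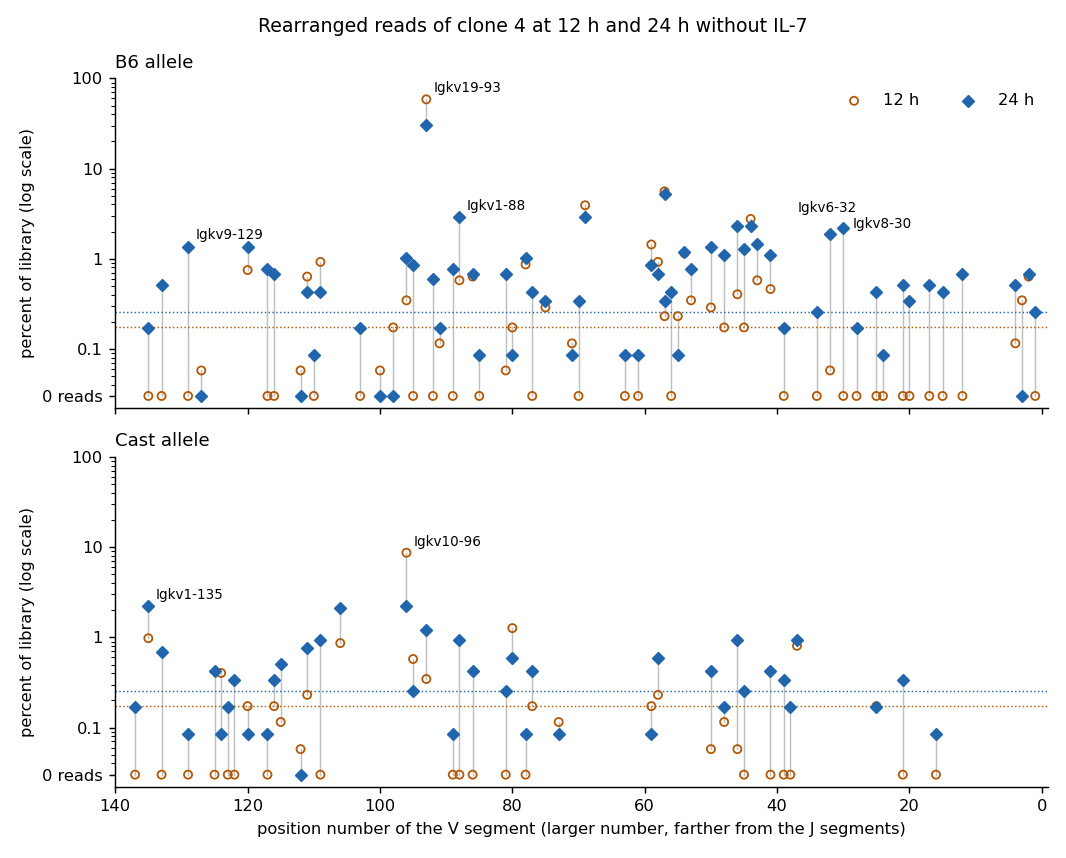
Percent of the library taken by each V segment at 12 h (open circles) and 24 h (filled diamonds), on a log axis, against the position number of the segment, with the B6 allele above and the Cast allele below. Dotted lines mark 3 reads in each library (0.173% and 0.256%), segments without reads are drawn on the line marked 0 reads, and the right-hand end of the B6 panel, below position 35, holds reads at 24 h where most segments had none at 12 h.

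Igkv19-93, which is annotated as a functional V gene at chr6:68736297-68736780, took most of the 12 h library on its own. On the B6 allele it had 1018 of 1737 reads at 12 h, or 58.6% (95% Wilson interval 56.3 to 60.9), and 361 of 1174 at 24 h, or 30.7% (28.2 to 33.4). The share of the library was thus 0.525 times as large at 24 h (exact interval 0.464 to 0.592, Fisher's exact test, Benjamini-Hochberg adjusted p = 2.77e-48). On Cast the same segment had 6 reads at 12 h and 14 at 24 h, a share 3.45 times as large (1.25 to 11.0, Fisher's exact test, adjusted p = 0.0247), which was not called as a share of Cast reads (Fisher's exact test, adjusted p = 0.0856). Igkv10-96, which lies on the distal side of Igkv19-93 and also joins by inversion, was the other segment called lower at 24 h, on Cast. Its Cast allele had 151 reads at 12 h, 55.1% of all Cast reads, and 26 at 24 h, 10.8% of them. As a share of the whole library it was 0.255 times as large at 24 h (0.161 to 0.388, Fisher's exact test, adjusted p = 1.14e-12). Igkv10-96 is a functional V gene at chr6:68631963-68632442, and neither element of its signal sequence equals the consensus.

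Across all segments and alleles, 79 of 224 had 3 or more reads in at least 1 of the libraries and were tested, and a segment is said to be called higher or lower where the adjusted p of Fisher's exact test was under 0.05. Of these, 33 were higher at 24 h (41.8%) and 2 were lower (2.53%), the pair just described, and 44 were not called. On B6 the test called 23 of 50 higher (46.0%) and 1 lower (2.00%), and on Cast 10 of 29 higher (34.5%) and 1 lower (3.45%). The median difference over the 79 was 0.396 percentage points in favour of 24 h. Since the shares of a library sum to 100%, a lower share of Igkv19-93 raises all the others, by a factor of 1.66 or 0.73 on the log2 scale. The test was therefore repeated within the 713 reads at 12 h and 799 at 24 h that were not on Igkv19-93. In these, 15 of 77 segments and alleles were higher at 24 h (19.5%) and 8 were lower (10.4%), and all 15 were among the 33 called with every read. Igkv10-96 on Cast held 21.2% of these reads at 12 h and 3.25% at 24 h, so its lower share still raises the others. Single segments were not tested with both Igkv19-93 and Igkv10-96 left out. Most of the higher calls, 24 of the 33 and 12 of the 15, were of segments and alleles with fewer than 3 reads at 12 h, which were tested only through the library in which they are high. The higher calls that remained without Igkv19-93 among those with 3 or more reads at both times were Igkv1-88, Igkv12-46 and Igkv5-45 on B6.

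**Figure D2:**
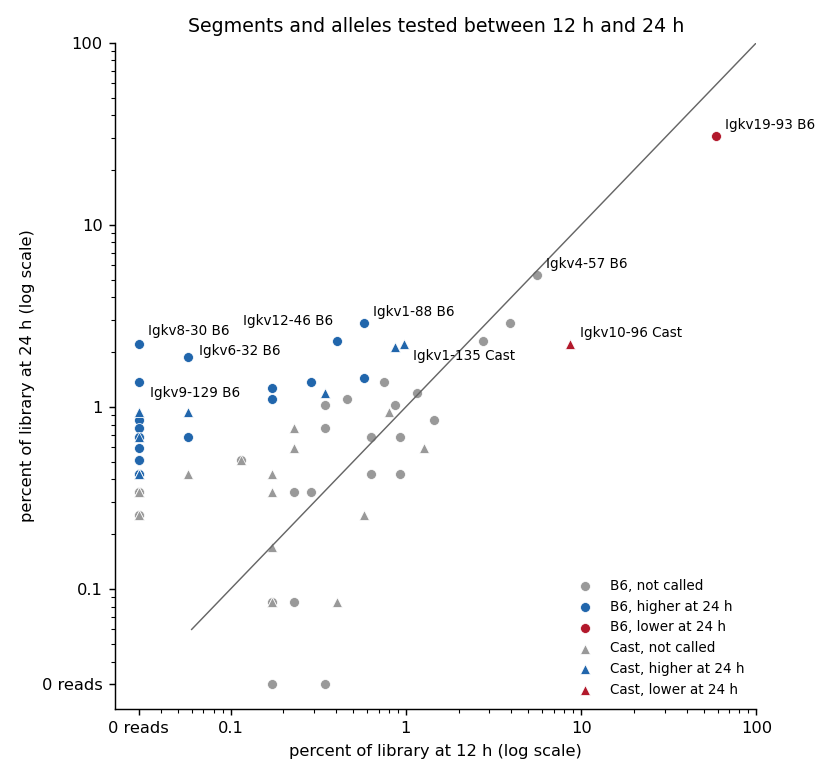
Percent of the library at 24 h against that at 12 h, both on log axes, for the 79 segments and alleles tested, with B6 as circles and Cast as triangles and the line of equal shares drawn. The column of blue points at the left holds segments without a read at 12 h, and the red points, Igkv19-93 on B6 and Igkv10-96 on Cast, are the 2 that were lower at 24 h.

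The 4 segments that followed Igkv19-93 in reads on B6 at 12 h had ratios below 1 with intervals that reach past 1. Igkv4-57 had 97 reads at 12 h and 62 at 24 h, which is 5.58% and 5.28% of the library, a ratio of 0.946 with an exact interval from 0.676 to 1.31. Igkv4-69 had 68 and 34 reads (3.91% and 2.90%, ratio 0.740, interval 0.475 to 1.13), and Igkv12-44 had 48 and 27 (2.76% and 2.30%, ratio 0.832, interval 0.499 to 1.36). Igkv4-59, the fifth by reads at 12 h, had 25 and 10 reads (1.44% and 0.852%, ratio 0.592, interval 0.254 to 1.28). None of these 4 was called with all reads. Among the reads that were not on Igkv19-93 all 4 were lower at 24 h, with Igkv4-57 at 13.6% and 7.76% (Fisher's exact test, adjusted p = 0.00365) and Igkv4-69 at 9.54% and 4.26% (Fisher's exact test, adjusted p = 8e-04). Igkv12-44 had 6.73% and 3.38% of these reads (Fisher's exact test, adjusted p = 0.0174) and Igkv4-59 had 3.51% and 1.25% (Fisher's exact test, adjusted p = 0.0258). These segments lie at positions 44 to 69 and join by inversion.

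The B6 segments with the greatest gain in share were of 2 kinds, those that had reads at 12 h and those that had none or 1. Of the first kind, Igkv1-88 had 10 reads at 12 h and 34 at 24 h, 0.576% and 2.90% of the library, a share 5.03 times as large (2.43 to 11.4, Fisher's exact test, adjusted p = 8.14e-06). Igkv12-46 had 7 and 27 reads and a share 5.71 times as large (2.43 to 15.5, Fisher's exact test, adjusted p = 4.46e-05). Igkv5-45 had 3 and 15 reads (7.40 times, 2.09 to 39.9, Fisher's exact test, adjusted p = 0.00191) and Igkv4-50 had 5 and 16 (4.74 times, 1.66 to 16.5, Fisher's exact test, adjusted p = 0.00518). Without the reads of Igkv19-93, Igkv1-88, Igkv12-46 and Igkv5-45 were still called higher, and Igkv4-50 was not. Igkv12-46 and Igkv12-44 carry the same signal sequence, CACAGTGattcaagccatgACATAAACC, and each had 27 B6 reads at 24 h, which they reached from 7 and from 48 reads. Igkv5-45 is 99.0% identical to Igkv5-43 over the longest annotated exon, so reads of this pair could have been exchanged by the alignment. Igkv5-43 had 10 and 17 reads and was called higher as well (2.52 times, 1.09 to 6.15, Fisher's exact test, adjusted p = 0.0414), but not without the reads of Igkv19-93 (Fisher's exact test, adjusted p = 0.426) or with a minimum of 1 read (Fisher's exact test, adjusted p = 0.0545).

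Of the second kind, Igkv8-30 had no B6 read at 12 h and 26 at 24 h, 2.21% of the library (1.52 to 3.23), which is at least 12.8-fold higher when set against a limit of 3 reads at 12 h (Fisher's exact test, adjusted p = 1.24e-09). That bound leaves out the counting error at 24 h, and the exact lower limit of the ratio was 9.71. It lies at chr6:70117061-70117620. Igkv6-32, its neighbour at chr6:70074024-70074603, had 1 read and then 22, a share 32.6 times as large with an exact interval from 5.26 to 1343 (Fisher's exact test, adjusted p = 5.26e-07). These segments, whose signal sequences are the same, were thus almost unread at 12 h and both among the 8 most abundant B6 segments at 24 h. Igkv9-129, at the other end of the locus, had none and then 16, 1.36% of the library and at least 7.89-fold higher against the same limit (exact lower limit 5.71, Fisher's exact test, adjusted p = 7.28e-06). On Cast, Igkv8-30 and Igkv6-32 had no read in either library, which allows up to 0.173% at 12 h and 0.256% at 24 h. Their Cast alleles could be read, with 4553 and 10064 reads over all 10 rearrangement libraries, whereas Igkv4-57 and Igkv12-44 had 3 and 1 Cast reads in all of them, so that little can be said of Cast for these.

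On Cast, 15 V segments had 3 or more reads at 12 h, and 11 of them had so again at 24 h. Igkv1-135 had 17 and 26 reads, 6.20% and 10.8% of Cast reads, and was called higher as a share of the library (2.26 times, 1.18 to 4.44, Fisher's exact test, adjusted p = 0.0234). The pseudogene of the Igkv11 family (chr6:68339527-68339995) had 15 and 25 reads, 5.47% and 10.4% of Cast reads (2.47 times, 1.25 to 5.03, Fisher's exact test, adjusted p = 0.0168). Both lie in the distal part of the locus and join by deletion. Neither was called within the reads that were not on Igkv19-93, nor as a share of Cast reads (Fisher's exact test, adjusted p = 0.132 for Igkv1-135 and 0.0890 for the pseudogene). Igkv4-80, the second Cast segment at 12 h, had 22 and 7 reads, 8.03% and 2.90% of Cast reads, which was not called as a share of the library. It was called lower when the reads of Igkv19-93 were left out (Fisher's exact test, adjusted p = 0.0140) and when shares were taken of the reads of its own allele. Igkv5-37 had 14 and 11 reads (5.11% and 4.56% of Cast reads), Igkv10-95 had 10 and 3, Igkv9-124 had 7 and 1, Igkv14-111 had 4 and 9 and Igkv4-58 had 4 and 7. The remaining 5 had 3 reads each at 12 h, namely Igkv2-116, Igkv4-77, Igkv4-59, Igkv6-25 and Igkv9-120, with 4, 5, 1, 2 and 1 reads at 24 h. None of these 10 was called. Among Cast segments with no or 1 read at 12 h, Igkv1-88 and Igkv2-109 had none and then 11, at least 5.43-fold higher against the same limit (exact lower limit 3.71, Fisher's exact test, adjusted p = 3.92e-04 for each), and Igkv12-46 had 1 and then 11 (Fisher's exact test, adjusted p = 0.00191). These 3 were called with and without the reads of Igkv19-93, but they were tested only through their reads at 24 h.

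A list of segments was formed by reads alone, with each allele of a segment counted separately and 3 reads taken as read. By this rule 43 were read at 12 h, 35 of which were read again at 24 h, and 36 were first read at 24 h. The 35 held 97.0% of the 12 h library and 74.2% of the 24 h library. The 36 held 22.7% of the 24 h library, with 22 of them on B6 (15.4%) and 14 on Cast (7.24%). They were mostly small, with a median of 6 reads, and 3 of them reached 1% of the library, namely Igkv8-30, Igkv6-32 and Igkv9-129 on B6. At 12 h, 30 of the 36 had no read and 6 had 1 or 2. For 11 of the 36 the other allele of the same segment had already been read at 12 h, as for Igkv1-88 and Igkv12-46, where B6 was read at 12 h and Cast first at 24 h. The rule sets these 36 apart by the same reads, so that the 24 of them that were called higher carry no further weight. The members 1 read inside the limit were Igkv3-1 and Igkv8-34 on B6 and Igkv4-81 and Igkv5-45 on Cast, with none at 12 h and 3 reads at 24 h, and Igkv3-4 on B6 and Igkv1-115 on Cast, with 2 and 6. Just outside it, for example, Igkv8-28 on B6 had none and 2 and Igkv5-48 on B6 had 3 and 13, whereas Igkv12-98 on B6 had 3 reads at 12 h and none at 24 h. When the 12 h library was thinned to the 1174 reads of the 24 h library, which can only lengthen this list, 34.4 of 43 were expected to be read at 12 h and 40.7 to be first read at 24 h.

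The 8 that were read at 12 h and not at 24 h held 32 reads, 1.84% of the 12 h library. They were Igkv3-3, Igkv4-55, Igkv4-80 and Igkv12-98 on B6 and Igkv4-59, Igkv6-25, Igkv9-120 and Igkv9-124 on Cast. The most abundant were Igkv9-124 with 7 reads and then 1, and Igkv3-3 with 6 reads and then none. Igkv3-3 was called lower among the reads that were not on Igkv19-93 (Fisher's exact test, adjusted p = 0.0364), and it had 2 reads at 36 h and 1 at 48 h.

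The libraries at 36 h and 48 h took no part in forming these lists, and in them the segments first read at 24 h were nearly all found. Of the 36, 35 had 3 or more reads in the 36 h library and all 36 in the 48 h library, and the exception at 36 h was Igkv3-1 on B6, with 3 reads at 24 h, none at 36 h and 9 at 48 h. Their summed share was 22.7% at 24 h, 24.4% at 36 h and 26.9% at 48 h. The alleles differed in this, since the 22 on B6 held 15.4%, 19.4% and 21.2% of the 3 libraries, while the 14 on Cast held 7.24%, 4.96% and 5.69%. The 9 from Igkv6 and Igkv8 held 6.90%, 10.8% and 12.5%, while the other 27 held 15.8%, 13.6% and 14.4%. Taken singly, 13 of the 36 had a larger share at 36 h than at 24 h, and 18 did at 48 h. Of the 8 that were read at 12 h and not at 24 h, 6 had 3 or more reads at 36 h and 7 at 48 h. Of the 145 that were read at neither time, 60 had 3 or more reads at 36 h. Together the 145 held 15.9% of that much deeper library. Single segments took different courses after 24 h. Igkv6-20 on B6 had 4 reads at 24 h (0.341%) and 159 at 36 h (2.24%), whereas Igkv9-129 on B6 was at 1.36% at 24 h, 0.761% at 36 h and 0.694% at 48 h.

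**Figure D3:**
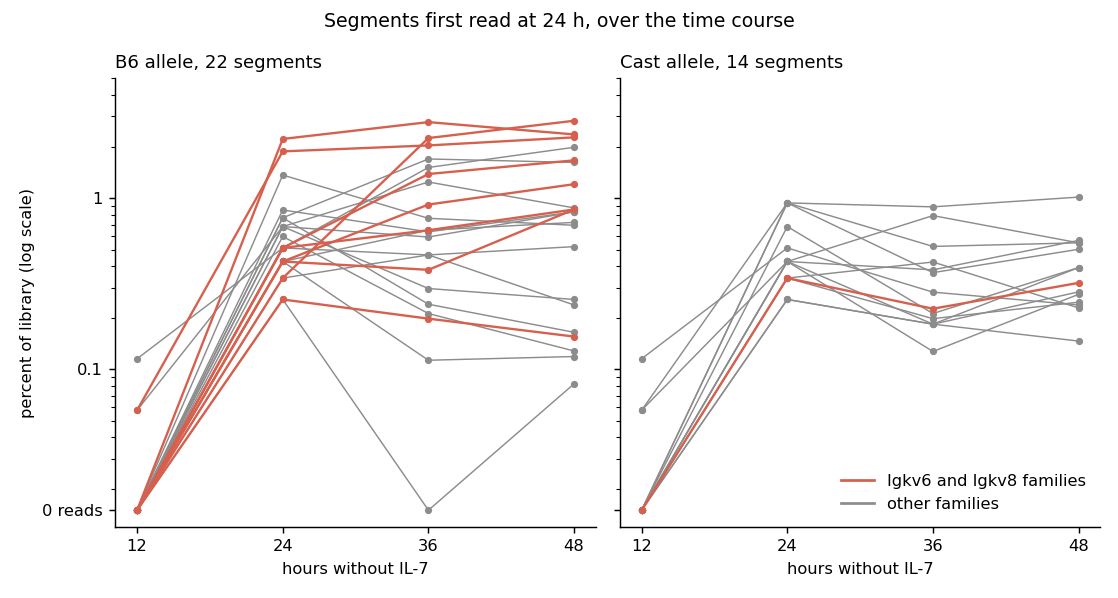
Percent of the library (log axis) at 12, 24, 36 and 48 h without IL-7 for the 36 segments and alleles first read at 24 h, 22 on B6 at the left and 14 on Cast at the right, with the Igkv6 and Igkv8 families in red. The rise from 12 h to 24 h follows from the way the list was formed, and most lines stay level or move in both directions after 24 h, with only Igkv3-1 on B6 returning to 0 reads at 36 h.

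The segments were also grouped by family, the number after Igkv in the name. The Igkv6 and Igkv8 families were almost unread at 12 h and had far more reads at 24 h. Igkv7, Igkv13, Igkv15, Igkv16 and Igkv18 also had no read at 12 h and Igkv17 had 1, but none of these had more than 2 at 24 h. The 20 segments of Igkv6 and Igkv8 lie together at positions 13 to 34, with the Igkv3 family between them and J. At 12 h they held 4 reads in all, 0.230% of the library (0.0896 to 0.591), of which 1 was Igkv6-32 on B6 and 3 were Igkv6-25 on Cast. At 24 h they held 87 reads, 7.41% of the library (6.05 to 9.05), a ratio of 32.2 with an exact interval from 12.1 to 121. The families were summed after their counts had been seen. Nearly all of these reads were on B6, with 80 reads or 8.57% of B6 reads at 24 h, against 7 reads or 2.90% of Cast reads. On B6 at 24 h the segments with 3 or more reads were Igkv8-30 (26 reads), Igkv6-32 (22), Igkv6-17 and Igkv8-21 (6 each), Igkv6-15 and Igkv6-25 (5 each), Igkv6-20 (4) and Igkv8-34 (3), all of which had none at 12 h but for the 1 read of Igkv6-32. Of their 10 segments and alleles tested, 6 were called higher, but 9 of the 10 were first read at 24 h, so that nothing is read from this count. At 36 h the families held 14.5% of the library and at 48 h 17.0%.

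The signal sequence of Igkv8-30 and Igkv6-32 is carried by 7 segments in the region, and their B6 reads at 24 h differed. At 24 h Igkv6-17 had 6 B6 reads and Igkv8-28 had 2, while Igkv7-33, Igkv8-19 and Igkv8-16 had none on B6 in either library. Over all 7, B6 reads at 24 h ranged from 0 to 26 in 1 library, and whether the signal sequence bears on these reads was not tested.

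The Igkv1 family, with 8 of its 11 segments in the distal end of the locus, also had a much larger share at 24 h. It had 29 reads at 12 h, 1.67% of the library (1.17 to 2.39), and 108 at 24 h, 9.20% (7.68 to 11.0), and the share was larger on either allele, with 0.684% and 5.57% of B6 reads and 6.93% and 23.2% of Cast reads. Igkv1-88, which lies outside the distal end, gave 34 B6 and 11 Cast reads of the 108. Of the 8 segments and alleles of Igkv1 that were tested, 6 were called higher, but 6 of the 8 were first read at 24 h, so that this count, too, carries no weight. Without the leading segment of each allele (Igkv19-93 on B6 and Igkv10-96 on Cast) the family held 2.25% and 9.09% of B6 reads and 15.4% (10.1 to 22.9) and 26.0% (20.6 to 32.3) of Cast reads, where the intervals overlap. Igkv12 had 3.86% at 12 h and 8.09% at 24 h. On B6 without Igkv19-93 the direction for Igkv12 flips, to 14.8% and 13.3%, with intervals that overlap. Igkv5 had 1.84% and 5.71%, and on Cast without Igkv10-96 the direction flips, to 13.0% and 9.30%, again with intervals that overlap. Igkv10 had 9.61% (8.32 to 11.1) at 12 h and 4.34% (3.32 to 5.67) at 24 h, which came mostly from Igkv10-96 on Cast. On B6 the direction for Igkv10 was the opposite, with 0.410% and 2.36% of B6 reads. Igkv4, the family with most segments (30), had 18.4% (16.6 to 20.3) and 21.5% (19.2 to 23.9), with intervals that overlap, whereas among the reads that were not on Igkv19-93 it had 44.7% and 31.5%, so that the direction flips with the scaling.

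**Figure D4:**
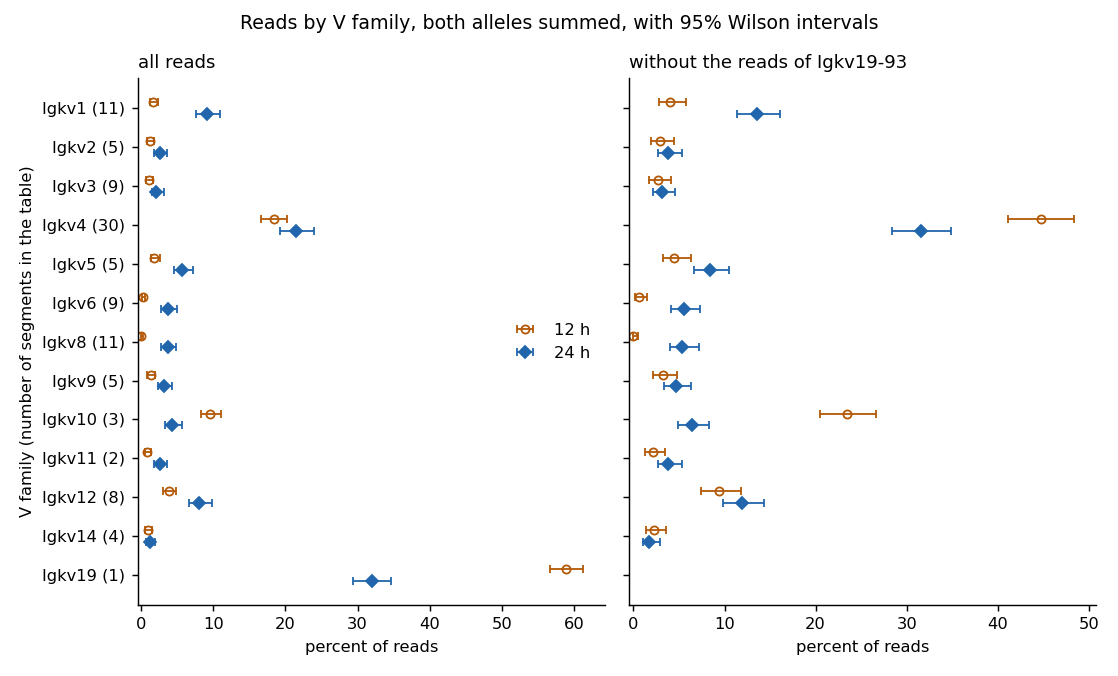
Percent of reads in each V family at 12 h (open circles) and 24 h (filled diamonds) with 95% Wilson intervals, for families with 1% or more of the reads at either time, over all reads at the left and without the reads of Igkv19-93 at the right, the number of segments in brackets. Igkv6 and Igkv8 sit at or near 0 at 12 h in both panels, and Igkv4 changes direction between the panels.

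Of the 4 stretches into which the locus was divided by position number, the one at positions 1 to 35 had the largest ratio between the libraries. It held 23 reads at 12 h, 1.32% of the library (0.884 to 1.98), and 112 at 24 h, 9.54% (7.99 to 11.4), a ratio of 7.21 (4.57 to 11.8). Of these reads, 4 and 87 were on Igkv6 and Igkv8. The Igkv3 family, which lies nearest to J, had 19 and 25 reads, 1.09% and 2.13% of the library, and without Igkv19-93 it had 2.67% (1.71 to 4.12) and 3.13% (2.13 to 4.58). The Igkv3 family had 0 Cast reads at 12 h, 24 h and 36 h and 2 at 48 h, against 255 B6 reads at 48 h. In these libraries, Igkv3 alleles that were unused on Cast cannot be told apart from alleles that could not be read. By allele, positions 1 to 35 held 1.09% and 2.90% of Cast reads and 1.37% and 11.3% of B6 reads. Without the leading segments these were 2.44% and 3.26% on Cast, with intervals that overlap, and 4.49% (2.93 to 6.84) and 18.4% (15.4 to 21.7) on B6. The distal end, from the Igkv11 pseudogene outward, held 5.41% (4.44 to 6.58) and then 14.8% (12.9 to 17.0), and here Cast had the greater shares, with 19.0% and 44.0% of Cast reads against 2.87% and 7.29% of B6 reads. These values move with the leading segment of each allele, since without Igkv10-96 the distal end held 42.3% (33.9 to 51.1) and 49.3% (42.7 to 55.9) of Cast reads, and without Igkv19-93 it held 9.44% (7.06 to 12.5) and 11.9% (9.49 to 14.8) of B6 reads. The segments from Igkv4-71 to Igkv16-104, among them Igkv19-93 and Igkv10-96, held 73.2% of the 12 h library and 47.2% (44.3 to 50.1) of the 24 h library. Positions 36 to 70 held 20.1% (18.3 to 22.0) and 28.4% (25.9 to 31.1), and the direction flips without Igkv19-93, to 48.9% and 41.8%. Of the 43 segments and alleles read at 12 h, 3 lay at positions 1 to 35, and of the 36 first read at 24 h, 12 did (33.3%), where the stretch has 31 of the 112 segments (27.7%). The median position of the reads was 93, that of Igkv19-93, in either library. Without Igkv19-93 it was 69 in the 12 h library and 59 in the 24 h library, followed by 57 (36 h) and 50 (48 h). On B6 alone it was 93 in the 12 h library and 89 in the 24 h library with all reads, and 57 in both without Igkv19-93. On Cast, with all reads, it was 96 in both.

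By orientation, the 41 segments that join by deletion held 7.08% of the 12 h library (5.97 to 8.39) and 19.1% of the 24 h library (16.9 to 21.4), while the 70 that join by inversion held the rest. The difference was in the same direction without Igkv19-93, with 17.2% and 28.0%. On Cast the shares were 21.2% and 44.8%, but without Igkv10-96, which joins by inversion, they were 47.2% (38.5 to 55.9) and 50.2% (43.6 to 56.9), with intervals that overlap widely. On B6 they were 4.44% and 12.4%, and without Igkv19-93 14.6% (11.6 to 18.2) and 20.3% (17.2 to 23.8).

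Segments with a consensus heptamer and nonamer, a group formed after the counts had been seen, held 76.9% (74.9 to 78.8) of the library at 12 h and 52.8% (50.0 to 55.7) at 24 h. Igkv19-93 belongs to this group, and without it the group held 43.8% and 30.7% of reads. On Cast the direction turns with Igkv10-96, since the group held 13.9% and 18.3% of all Cast reads and 30.9% (23.4 to 39.5) and 20.5% (15.6 to 26.4) of those not on Igkv10-96. The group is defined by the signal sequences of the B6 genome, and those of the Cast alleles were not examined. Segments annotated as pseudogenes in the B6 genome held 30 reads at 12 h, 1.73% of the library, and 63 at 24 h, 5.37%. Of the 63, 25 were on Cast at the Igkv11 pseudogene. Cast held 25 of the 30 and 41 of the 63, and whether these segments are pseudogenes on Cast was not examined.

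The allelic share was compared segment by segment for the 32 V segments with 3 or more reads at both times, a comparison that was added after the counts had been seen. By Fisher's exact test on B6 and Cast reads with Benjamini-Hochberg adjustment, 4 differed between the libraries (12.5%). Igkv10-96 had 6 B6 and 151 Cast reads at 12 h and 12 and 26 at 24 h, a B6 share of 3.82% and 31.6% (Fisher's exact test, adjusted p = 1.53e-04). Igkv19-93 went from 99.4% to 96.3% on B6 (Fisher's exact test, adjusted p = 7.22e-04). Igkv2-109 had 16 B6 reads and no Cast read at 12 h and 5 and 11 at 24 h (Fisher's exact test, adjusted p = 7.22e-04). Igkv10-95 had no B6 read and 10 Cast reads at 12 h and 10 and 3 at 24 h (Fisher's exact test, adjusted p = 0.00292). For 2 of the 4 the B6 share was lower at 24 h and for the other two it was higher. At 48 h the B6 share was 57.5% at Igkv10-96, 90.4% at Igkv19-93, 64.1% at Igkv2-109 and 97.8% at Igkv10-95. The B6 share of the whole library was 84.2% at 12 h and 79.5% at 24 h. Its direction depends on Igkv19-93, since without it the shares were 62.4% and 71.6% (Fisher's exact test, p = 1.52e-04). Without both Igkv19-93 and Igkv10-96 they were 79.0% and 73.6% (Fisher's exact test, p = 0.0266). The clone 4 libraries at 48 h had B6 shares of 76.7% (time course) and 71.8% (other table).

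**Figure D5:**
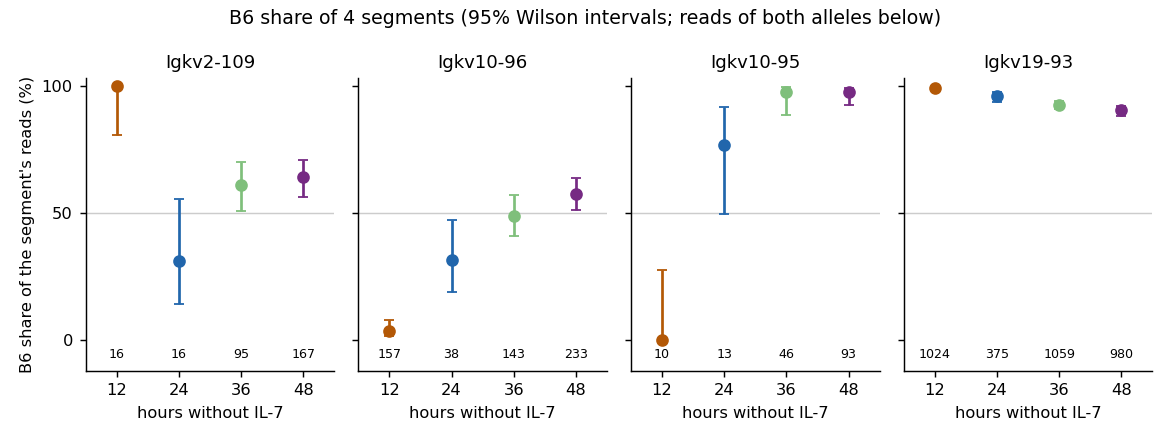
B6 share of the reads of Igkv2-109, Igkv10-96, Igkv10-95 and Igkv19-93 at 12, 24, 36 and 48 h without IL-7, with 95% Wilson intervals and the number of reads of both alleles under each point. Igkv10-96 and Igkv10-95 have their lowest B6 share at 12 h, Igkv19-93 stays above 90% on B6, and Igkv2-109 is at 100% at 12 h, 31.2% at 24 h and above 60% later.

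More segments were read on both alleles at 24 h than at 12 h. At 12 h, 7 V segments had 3 or more reads on each allele, 21 on B6 alone and 8 on Cast alone, and at 24 h the numbers were 17, 29 and 8. These numbers move with depth, and the deeper library at 36 h had 45, 34 and 11. They also depend on whether both alleles of a segment could be read. For example, Igkv4-57 and Igkv12-44 had no Cast read at 12 h, 24 h or 48 h. The Igkv11 pseudogene had no B6 read at these times.

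Neither 12 h nor 24 h had a second library. The only repeat of clone 4 among the rearrangement libraries is at 48 h. There the library of the time course can be compared with the one in the other table. Over 81 segments and alleles with 30 or more reads in both, the share differed by a median of 1.50-fold between these libraries, by 2.69-fold at the 90th percentile and by 8.55-fold at most. Of the 33 segments and alleles called higher at 24 h, 0 of the 9 read at both times had an interval of the ratio that lay wholly above 2.69. The interval lay above it for 8 that were first read at 24 h, all with 1 or no read at 12 h, and since these were tested only through their 24 h reads, this carries no further weight for them. Neither Igkv19-93 on B6 nor Igkv10-96 on Cast lay wholly below the inverse of 2.69. For the other calls the interval reached within 2.69-fold, and how far 2 libraries at 12 h or at 24 h would differ was not measured. Every count was also divided by 25.2, the mean chi-square between the libraries at 48 h, which were deeper. Fisher's exact test then called 0 of 26 segments and alleles in either direction, with 1 at an unadjusted p under 0.05. The division left small counts, so few segments could have been called, and nothing is read from this lack of calls.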

How the data were processed

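Clone 4 RNA was poly-A selected, primed from Cκ, amplified by ligation-mediated PCR without molecular identifiers, and sequenced in pairs. Trimming, Bowtie2 alignment to an mm10-based genome holding both B6 and Cast alleles and HTSeq counting (versions not given in the sources used here) were done by the authors, and the deposited values are raw counts for 112 V segments on each allele. Percentages, 95% Wilson intervals, exact conditional intervals of ratios and two-sided Fisher's exact tests against the library total, with Benjamini-Hochberg adjustment (threshold 0.05) over segments and alleles with 3 or more reads, used SciPy 1.17.1, NumPy 2.4.6 and pandas 2.3.3 under Python 3.11.15. The test was checked on simulated counts with counting error alone, so the check does not cover variation between libraries. Coordinates, strands and signal sequences are of GRCm38 (GENCODE M21 names, GRCm38.p6 bases). Identities were computed with Biopython 1.88 and figures drawn with matplotlib 3.10.9.

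Named segments are the 5 with most reads per allele and library, the 10 called with the largest rise or fall in percentage points, Cast segments with 3 reads at 12 h and segments first read at 24 h with 1% of the library, and others were named after their values were seen. Members and lists were chosen with earlier results of these data known. Alternatives were other read minimums, other totals, leaving out abundant segments, summed alleles and counts divided by excess variation.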

Additional observations from a re-analysis of the deposited data

Results flagged for a closer look

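The B6 share of 4 segments differed between 12 h and 24 h by a test of the difference itself (Fisher's exact test, Benjamini-Hochberg adjusted over 32 segments). At 24 h it was 31.2% at Igkv2-109, 31.6% at Igkv10-96, 76.9% at Igkv10-95 and 96.3% at Igkv19-93. At 12 h it was 100% of 16 reads at Igkv2-109, 3.82% of 157 at Igkv10-96, 0% of 10 at Igkv10-95 and 99.4% of 1024 at Igkv19-93. Igkv10-95 is 97.0% identical to Igkv10-94 over the longest annotated exon, and Igkv10-94 had no read on either allele at 12 h or 24 h. By the same measure Igkv2-109 is 95.2% identical to Igkv2-116, whose B6 reads were 0 at 12 h and 8 at 24 h. Exchange of reads within either pair was not tested. Among the 4 segments whose B6 share differed, Igkv2-109 is the one whose B6 share at 24 h lies outside the values at 12 h, 36 h (61.1%) and 48 h (64.1%) on the low side.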

How the results depend on the processing

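No paired analysis was possible because 12 h and 24 h have 1 library each. Limits were set by depth, since 3 reads are 0.173% of the 12 h library and 0.256% of the 24 h library, and by the lack of a second library. Of 33 calls higher and 2 lower at 24 h, a minimum of 1 read gave 32 and 2 and summed alleles 29 and 2, the shares within the own allele gave 27 and 3, a minimum of 10 reads, which tests 35 in place of 79, gave 16 higher, and leaving out Igkv19-93 gave 15 and 8. Counts were also divided by 25.2, the mean chi-square between the clone 4 libraries at 48 h, which were deeper. Fisher's exact test then called 0 higher and 0 lower of 26, with 1 at an unadjusted p under 0.05. The divided counts were small, so few segments could have been called. Calls of single segments were as above in 97 of 173 settings, lost in 38 and not tested in 38, and none reversed.

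The B6 share fell by 4.75 percentage points from 12 h to 24 h, rose by 9.18 without Igkv19-93, and by Fisher's exact test on divided counts gave p = 0.473 for the same difference of -4.75. Segments and alleles read at 12 h and not at 24 h numbered 8, and 4 at 5 reads, 2 at equal percent and 4.02 after thinning, while those first read at 24 h ranged from 32 to 47 over these settings. Dissimilarity was 0.402, and 0.498 without Igkv19-93, 0.350 on B6 and 0.568 on Cast.

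Differences in percentage points (24 h minus 12 h) moved as follows, with the cause not tested. Without Igkv19-93, Igkv6 and Igkv8 moved from 7.18 to 10.3, Igkv1 from 7.53 to 9.45, Igkv10 from -5.27 to -17.0, Igkv12 from 4.24 to 2.49, Igkv4 from 3.10 to -13.2, positions 1 to 35 from 8.22 to 10.8, 36 to 70 from 8.36 to -7.15, Igkv4-71 to Igkv16-104 from -26.0 to -12.2, and consensus signals from -24.1 to -13.1. On B6 alone the values were 4.89 for Igkv1, 1.95 for Igkv10, 4.42 for the distal end of the locus (9.41 over both alleles), -22.5 for Igkv4-71 to Igkv16-104, 7.99 for deletion (12.0 over both alleles) and -27.0 for consensus signals. On Cast alone they were 1.81 for Igkv6 and Igkv8 and for positions 1 to 35, 16.3 for Igkv1, -46.7 for Igkv10, 7.52 for Igkv12, 2.46 for Igkv5 (3.87 over both alleles), 12.0 for positions 36 to 70, -38.8 for Igkv4-71 to Igkv16-104, 25.01 for the distal end, 23.6 for deletion and 4.39 for consensus signals. With each segment and allele counted once they were 11.3 for positions 1 to 35, -9.47 for 36 to 70, -3.47 for Igkv4-71 to Igkv16-104, 1.60 for the distal end, 3.57 for deletion and -8.06 for consensus signals. With each allele taken without its leading segment, added after seeing the data, the B6 values were 13.8 for Igkv6 and Igkv8, -25.9 for Igkv4, 2.50 for Igkv10, -1.54 for Igkv12, 13.9 for positions 1 to 35, -23.3 for 36 to 70, 7.02 for Igkv4-71 to Igkv16-104, 2.45 for the distal end and 5.67 for deletion. The Cast values were 0.817 for Igkv6 and Igkv8 and for positions 1 to 35, 10.6 for Igkv1, -12.2 for Igkv4, -3.71 for Igkv5, -6.73 for Igkv10, 8.02 for Igkv12, 3.396 for 36 to 70, -11.2 for Igkv4-71 to Igkv16-104, 7.03 for the distal end, 3.08 for deletion and -10.4 for consensus signals.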
